A study of Rattus norvegicus with 9 samples.

Results

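The collagen genes of the rat dorsal root ganglion (DRG) were followed across nerve injury and blockade of the G protein-coupled oestrogen receptor GPER. Every gene whose symbol had the form Col, a number, a and a number was taken, which gave 44 of the 20194 genes in the expression table. They were divided by the known structure of their proteins into 11 fibrillar genes, 6 type IV (basement membrane) genes, 6 type VI genes, 9 FACIT genes (collagens that attach to the surface of fibrils), 2 multiplexin genes, 3 short-chain network genes, 4 transmembrane genes and 3 others.

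RNA-Seq was performed on DRG tissue of adult male Sprague-Dawley rats in 3 groups with 3 libraries each. In the SNI group the tibial and common peroneal branches of the sciatic nerve were cut and the sural branch was left (spared nerve injury), and the sham group is given as sham-operated, with no account of that operation in the sources used here. In the SNI + G15 group, rats with SNI received the GPER antagonist G15 through an intrathecal catheter placed on day 5 of SNI and were studied over the following day, so that drug, solvent, catheter and injection all separate this group from SNI unless the SNI rats had the same procedure. The labels call the sham and SNI libraries controls of G15 but do not say whether these rats received vehicle, and labels and methods differ on the concentration of the solvent, DMSO. The study's text and its supplement differ on the number of rats used for sequencing, so whether a library came from 1 rat or a pool is unknown, and p-values measure only the spread between these libraries.

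Collagens are proteins of 3 polypeptide chains wound into a triple helix. Fibrillar chains, above all those of types I, III and V, build the fibrils of the ganglion capsule and the endoneurium, and type IV chains form the sheets of the basement membranes around Schwann cells, satellite glia and vessels. Type VI chains make beaded filaments between the fibrils and the basement membranes, FACIT chains decorate fibrils or basement membrane zones, and multiplexins carry side chains of sugars in vessel and glial basement membranes. Chains are hydroxylated, glycosylated and folded in the endoplasmic reticulum, trimmed by proteases outside the cell and cross-linked by lysyl oxidases.

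The labelled tissue carried its defining transcripts. The summed FPKM (fragments per kilobase of transcript, scaled to library size, a level per length) of 12 sensory neuron markers lay between 10660 and 11450 in every library, and that of 10 Schwann cell markers between 3721 and 6378. The injury label was checked with Atf3, a transcription factor of axotomized neurons, which stood at 3.94, 4.3 and 3.61 FPKM in sham against 143.2, 142.07 and 138.34 in SNI and 135.41, 132.39 and 139.84 in SNI + G15. The neuropeptide gene Gal lay between 8.26 and 10.43 FPKM in sham, between 247.25 and 274.18 in SNI and between 210.2 and 239.71 with G15. Depth was even, with total estimated counts from 18484557 to 18756736. SNI + G15 replicate 3 stood apart from the other libraries of its group: the median chi-square per gene between libraries was 1.55 to 1.68 where it was involved and 0.761 between the other two, against 0.455 for counting noise alone. The collagen members were therefore also tested without it, while the gene and marker lists were not.

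Sequences just before the start sites are shown for 7 members from several classes that were called higher after injury or with G15, and for the basement membrane pair Col4a1 and Col4a2, which did not pass in edgeR's test. They were picked as examples after their values were seen. RefSeq windows (build GRCr8) matched 35 of the 44 members. The 250 bases before each start were searched on both strands for CCAAT (the CCAAT box), GGGCGG (the GC box bound by Sp1-type factors), TATAAA (the TATA box) and TGANTCA (the AP-1 site), and the letters of each match are in capitals. None of the 4 motifs contains another. The last 100 bases before the start are printed, read in the direction of the gene.
Col16a1, chr5:147672996-147673095 (+): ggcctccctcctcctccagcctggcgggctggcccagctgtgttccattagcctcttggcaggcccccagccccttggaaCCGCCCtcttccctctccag
Col18a1, chr20:11473545-11473644 (+): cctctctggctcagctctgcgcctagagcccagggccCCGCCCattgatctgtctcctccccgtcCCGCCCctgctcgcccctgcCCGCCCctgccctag
Col7a1, chr8:118483264-118483363 (+): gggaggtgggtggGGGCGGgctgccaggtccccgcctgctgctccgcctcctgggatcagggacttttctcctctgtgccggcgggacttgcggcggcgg
Col27a1, chr5:81662808-81662907 (+): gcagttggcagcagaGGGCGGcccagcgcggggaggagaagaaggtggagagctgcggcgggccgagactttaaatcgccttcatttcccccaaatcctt
Col8a1, chr11:56246682-56246781 (+): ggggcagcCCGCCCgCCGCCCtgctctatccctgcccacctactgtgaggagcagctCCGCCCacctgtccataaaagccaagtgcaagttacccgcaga
Col6a1, chr20:11905590-11905689 (+): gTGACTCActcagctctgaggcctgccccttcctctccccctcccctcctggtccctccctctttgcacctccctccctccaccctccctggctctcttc
Col1a2, chr4:33518457-33518556 (+): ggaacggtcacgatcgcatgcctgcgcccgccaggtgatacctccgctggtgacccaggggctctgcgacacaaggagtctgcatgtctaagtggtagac

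Type IV genes lie head to head in pairs. Col4a1 and Col4a2, whose products make the common basement membrane trimer, are read away from each other from starts 76 bases apart, and the whole stretch between them is shown, read along the Col4a1 strand.
Col4a1-Col4a2, chr16:84885521-84885596 (+): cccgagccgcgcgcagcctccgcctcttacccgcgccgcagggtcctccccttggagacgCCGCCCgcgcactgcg
The starts of Col4a3 and Col4a4 lie 412 bases apart and those of Col4a5 and Col4a6 1414 bases apart in the same arrangement. The GC box was present in the windows of 19 of 35 members (54.3%), against 30.5% of the 33469 windows in the table. It stood in 6 of 8 windows of members that were higher in SNI than in sham and in 5 of 10 windows of members that were higher with G15 than in SNI. The CCAAT box was found in 11 members (31.4%, against 34% of all windows), the TATA box in 4 (11.4%, against 12.9%), and the AP-1 site in Col6a1 alone (2.86%, against 6.34%). A match describes letters and is not evidence of binding.

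Collagen transcripts spanned more than 3 orders of magnitude in level. The highest mean levels over the 9 libraries were those of Col3a1 (77.5 FPKM) and Col1a1 (76.3 FPKM), the main chains of fibril types III and I, followed by Col5a3 (57.7), Col4a1 (39.4), Col1a2 (37.5), Col16a1 (35.9), Col4a2 (26.0) and Col6a2 (22.7). Among these, Col3a1 and Col1a1 did not separate from each other in sham, where the Col3a1 to Col1a1 ratio was 1.04 ± 0.048 (SD, n = 3). Col5a3, the third chain of type V, exceeded its partner Col5a1 5.09 ± 0.24 times in sham.

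A gene was tested when its FPKM was at least 1 in at least 1 library, which kept 28 members and 14305 genes in all. All 11 fibrillar genes were kept, with 2 of 6 type IV, 5 of 6 type VI, 5 of 9 FACIT, both multiplexin, 2 of 3 short-chain network, no transmembrane and 1 of 3 other genes. The members just inside this limit were Col11a2 (highest library 1.32 FPKM) and Col6a6 (1.89), and those just outside it were Col4a5 (0.91) and Col13a1 (0.87). Col4a5, a type IV chain, was at 0.91, 0.82 and 0.87 FPKM in sham, 0.53, 0.69 and 0.55 in SNI and 0.62, 0.48 and 0.4 in SNI + G15. Col13a1, a transmembrane chain, was at 0.84, 0.87 and 0.8 FPKM in sham, 0.64, 0.46 and 0.62 in SNI and 0.5, 0.44 and 0.72 in SNI + G15. In both genes every sham library lay above all injured libraries.

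**Figure D1:**
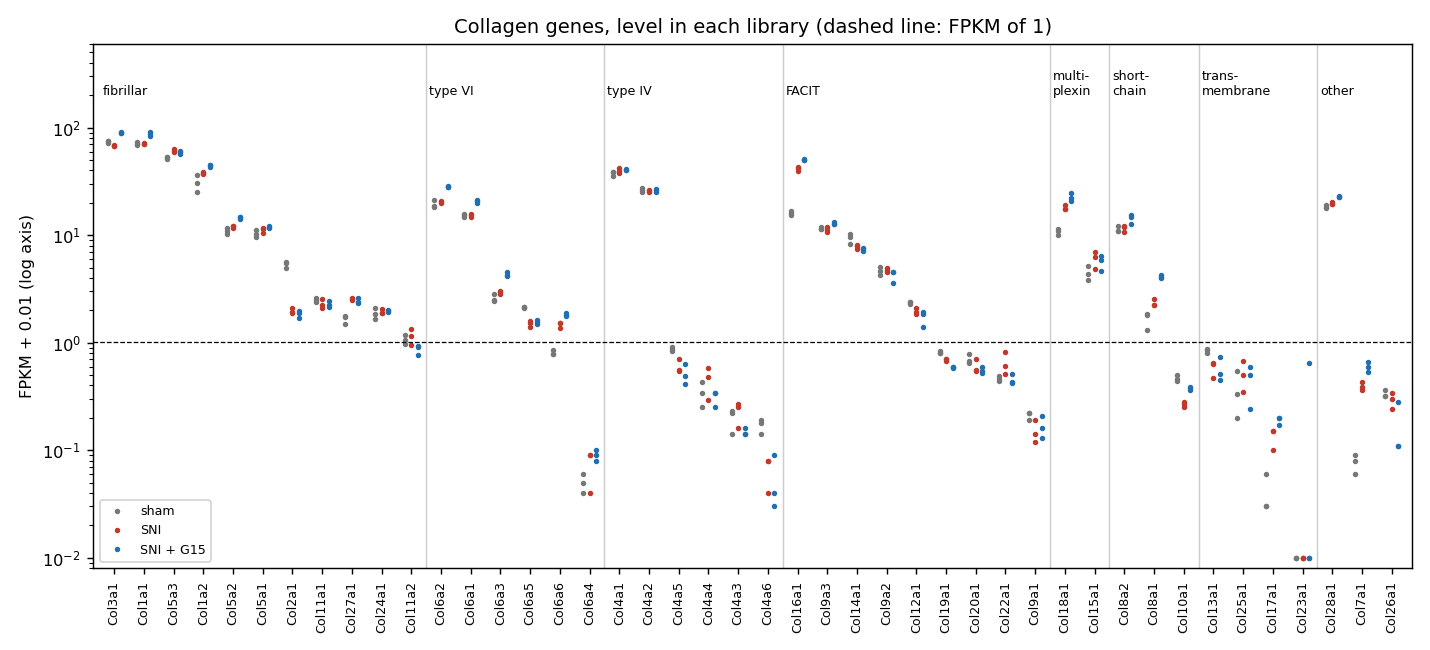
FPKM of each of the 44 collagen genes in each library (points, log axis, 0.01 added so that 0 can be drawn), grouped by class and ordered by mean level, for sham (grey), SNI (red) and SNI + G15 (blue). The 28 genes with a point above the dashed line at 1 FPKM were tested, Col3a1 and Col1a1 are the highest, and Col23a1 is at 0 in 8 libraries.

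The first comparison asked which collagens differ after the injury. Between SNI and sham, 8 of the 28 tested members were higher and 5 lower at an adjusted p under 0.05 (edgeR's quasi-likelihood test, Benjamini-Hochberg adjustment over all tested genes), which is 46.4% of them, against 45.7% of all tested genes (23.3% higher and 22.4% lower). The FPKM of the groups did not overlap in 15 of the 28 members, against 53.9% of all tested genes. The share was near that of all genes, and the median log2 fold change of the members was 0.04, against 0.0010 over all tested genes. Injury thus came with changes in both directions: the FACIT gene Col16a1, the multiplexins Col18a1 and Col15a1, the type VI gene Col6a6, the short-chain gene Col8a1 and the fibrillar Col27a1, Col5a3 and Col1a2 rose, while the fibrillar Col2a1 and Col3a1, the type VI gene Col6a5 and the FACIT genes Col12a1 and Col14a1 fell. The calls of Col15a1, Col8a1 and Col1a2 depended on the setting, as given below. In bulk tissue, fewer cells of a type and less RNA per cell cannot be told apart.

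Col16a1, a FACIT chain made by fibroblasts and smooth muscle that lies close to fibrils and basement membranes, gave the largest rise among the tested members. It stood at 16.83, 15.37 and 15.9 FPKM in sham, 42.43, 39.42 and 42.62 in SNI, and 50.15, 50.84 and 49.6 in SNI + G15. The 3 groups did not overlap and were ordered sham, SNI, SNI + G15. The log2 fold change between SNI and sham was 1.34 ± 0.048 (SE), a 2.52-fold difference (adjusted p = 7.39e-09).

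Col18a1 encodes the basement membrane multiplexin whose end fragment is endostatin. Its level was 10.88, 10.13 and 11.31 FPKM in sham and 17.66, 17.55 and 19.1 in SNI, with no overlap, a log2 fold change of 0.72 ± 0.055 (adjusted p = 2.16e-06). In SNI + G15 it was higher again, at 22.35, 24.55 and 20.82 FPKM. Col15a1, the other multiplexin, stood at 3.83, 5.18 and 4.32 FPKM in sham, 6.23, 6.91 and 4.86 in SNI and 5.9, 6.44 and 4.63 in SNI + G15, so its groups overlapped although the test between SNI and sham passed (0.40 ± 0.13, adjusted p = 0.0269). That call was lost without sham replicate 1 or 3 and without SNI replicate 1 or 2. It was also lost in both limma fits, in the fit of all 9 libraries and with a trend on transcript length taken out. Its counts were not whole in any library, so the value and its error are less certain.

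Col6a6 encodes one of the 3 chains that can stand in for the α3 chain of type VI collagen. It was at 0.78, 0.84 and 0.78 FPKM in sham, 1.5, 1.51 and 1.35 in SNI and 1.89, 1.8 and 1.75 in SNI + G15, and the 3 groups were separate. It passed the level limit only in the SNI and SNI + G15 libraries. The difference between SNI and sham was 0.84 ± 0.083 (adjusted p = 1.68e-05). Its estimated counts were not whole in any of the 9 libraries, so the quantifier may have divided reads between genes and the value is less certain. Col6a5, another such alternative chain, moved the other way, from 2.11, 2.15 and 2.14 FPKM in sham to 1.58, 1.38 and 1.52 in SNI (-0.54 ± 0.068, adjusted p = 8.56e-05), and these 2 groups did not overlap either. Its counts were not whole in 4 libraries, among them every SNI library, so this value is less certain too. Whether reads were shared with Col6a6 was not tested.

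Among the fibrillar genes that rose, Col27a1, a chain of cartilage and developing tissues, stood at 1.71, 1.76 and 1.49 FPKM in sham and 2.5, 2.56 and 2.58 in SNI (0.60 ± 0.072, adjusted p = 6.77e-05). Col5a3 was at 53.44, 50.91 and 53.55 FPKM in sham and 61.24, 59.18 and 63.93 in SNI (0.20 ± 0.040, adjusted p = 0.00238). Both were higher in every SNI library than in any sham library. Col1a2, the second chain of type I, stood at 30.25, 25.12 and 36.21 FPKM in sham and 37.94, 36.81 and 38.4 in SNI. Its call (0.28 ± 0.10, adjusted p = 0.0445) rested on a wide sham spread and on counts that were not whole in any library, and it passed in 5 of 16 alternative settings, with an adjusted p from 0.00125 to 0.159 and the same direction throughout. Col1a1, its partner in the type I trimer, did not pass (-0.03 ± 0.036, adjusted p = 0.576), but was lower with a trend on transcript length taken out (-0.089, adjusted p = 0.0411). The Col8a1 rise (0.49 ± 0.15, adjusted p = 0.0197) was lost without sham replicate 2 and without SNI replicate 3.

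Col2a1, the fibril chain of cartilage, gave the largest fall. It stood at 5.47, 4.99 and 5.63 FPKM in sham, 1.92, 2.08 and 1.89 in SNI and 1.89, 1.95 and 1.67 in SNI + G15. Every sham library was above every injured library, and the log2 fold change between SNI and sham was -1.47 ± 0.068 (adjusted p = 5.12e-08). Other cartilage genes were measured beside it. Acan, the main cartilage proteoglycan, was at most 0.1 FPKM in any library, and the matrilins Matn1 and Matn3 were at most 0.03 and 0.05 FPKM. Hapln1, a link protein of cartilage and of perineuronal matrix, also fell (-0.99 ± 0.10, adjusted p = 1.86e-05). Cnmd, the cartilage protein chondromodulin, was well expressed, at 51.6, 55.29 and 51.95 FPKM in sham and 40.9, 42.4 and 40.01 in SNI, and fell too (-0.40 ± 0.046, adjusted p = 4.94e-05). Comp, a cartilage matrix protein, stood between 4.17 and 5.05 FPKM and did not pass (adjusted p = 0.834). Of the 7 tested genes of the cartilage and bone list 2 were higher and 2 lower, beside 23.3% and 22.4% of all tested genes. The higher ones were among Ibsp, Runx2 and Sox9, which were higher at an unadjusted p under 0.05 in edgeR. Each of these was below 1 FPKM in every sham library, so it was tested only through the injured groups. Ibsp, for example, was at 0.92, 0.97 and 0.75 FPKM in sham and 1.89, 2.03 and 2.26 in SNI.

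The other members that fell did so by less. Col3a1 was at 71.94, 74.95 and 74.6 FPKM in sham and 68.21, 67.36 and 68.9 in SNI, with no overlap and a small difference (-0.15 ± 0.034, adjusted p = 0.00552). Col12a1, a FACIT chain that bridges fibrils, was at 2.4, 2.37 and 2.27 FPKM in sham and 1.93, 1.84 and 2.07 in SNI (-0.30 ± 0.059, adjusted p = 0.00178). Col14a1, a FACIT chain that limits fibril width, was at 10.15, 8.32 and 9.61 FPKM in sham and 7.41, 7.84 and 8.16 in SNI (-0.29 ± 0.070, adjusted p = 0.0062). For both FACIT genes the sham libraries lay above all SNI libraries, and in SNI + G15 neither differed from SNI at this threshold.

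**Figure D2:**
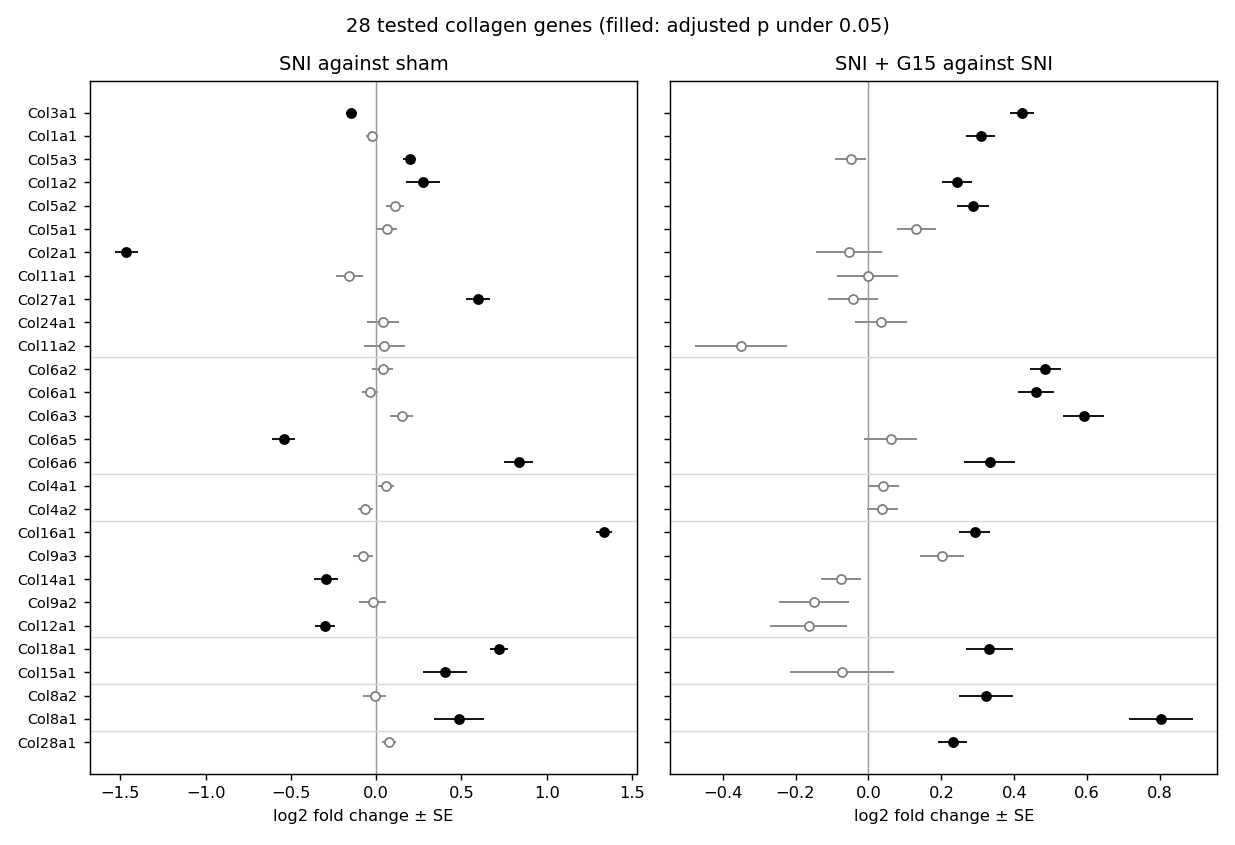
Log2 fold change (x axis, ± SE) of the 28 tested collagen genes, grouped by class from fibrillar at the top through type VI, type IV, FACIT, multiplexin and short-chain to Col28a1, for SNI against sham (left) and SNI + G15 against SNI (right, on a narrower axis). Filled points passed an adjusted p of 0.05; they fall on both sides of 0 on the left (8 higher, 5 lower) and on 1 side on the right (13 higher, 0 lower).

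The second comparison asked which collagens differ when G15 is given to injured rats. Between SNI + G15 and SNI, 13 of the 28 tested members were higher and none was lower in edgeR's quasi-likelihood test. That is 46.4% of the members against 15.2% of all tested genes (7.98% higher and 7.25% lower). The groups did not overlap in 16 of the 28 members, against 38.3% of all tested genes, and the median log2 fold change was 0.17 against 0.0063 over all tested genes. By class, 4 of 5 type VI genes, 4 of 11 fibrillar genes, both short-chain genes, 1 of 5 FACIT genes, 1 of 2 multiplexins, Col28a1 and neither type IV gene were higher. Without SNI + G15 replicate 3 all 13 remained. At an unadjusted p under 0.05 only Col11a2 was lower (-0.35 ± 0.13, adjusted p = 0.0955 in edgeR), and neither DESeq2 nor limma called any tested member lower. Col11a2 reached 1 FPKM in sham and SNI libraries only. This comparison shares its SNI libraries with the first one.

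The 3 chains of the common type VI trimer rose together. Col6a1 was at 15.55, 14.59 and 15.6 FPKM in sham, 14.6, 15.46 and 15.56 in SNI and 19.86, 21.37 and 20.87 in SNI + G15. Col6a2 was at 18.56, 18.2 and 21.39 FPKM in sham, 20.18, 20.09 and 20.77 in SNI and 27.76, 28.73 and 28.18 in SNI + G15. Col6a3 was at 2.43, 2.51 and 2.84 FPKM in sham, 3.03, 2.92 and 2.85 in SNI and 4.15, 4.56 and 4.25 in SNI + G15. For each of the 3 genes the SNI + G15 libraries lay above all other libraries, while none of them passed the test between SNI and sham. For Col6a3 every SNI library nevertheless lay above every sham library (0.15 ± 0.067, adjusted p = 0.0901 in edgeR). The log2 fold changes with G15 were 0.46 ± 0.050 for Col6a1 (adjusted p = 0.000684), 0.49 ± 0.042 for Col6a2 (adjusted p = 0.000197) and 0.59 ± 0.056 for Col6a3 (adjusted p = 0.00034). The ratio of Col6a1 to Col6a2 within a library stayed close, at 0.79 ± 0.055 in sham, 0.747 ± 0.023 in SNI and 0.733 ± 0.016 in SNI + G15. That of Col6a1 to Col6a3 was 5.9 ± 0.46, 5.19 ± 0.33 and 4.79 ± 0.11 in the same order. Col6a6 also rose with G15 (0.33 ± 0.070, adjusted p = 0.0151), a call kept in 12 of 16 alternative settings, and Col6a5 did not pass (0.06 ± 0.073, adjusted p = 0.598).

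Among the fibrillar genes, those of types I and III rose. Col3a1 reached 91.13, 90.02 and 90.09 FPKM in SNI + G15, above every sham and SNI library, with a log2 fold change against SNI of 0.42 ± 0.034 (adjusted p = 0.000149). It was the one member that was lower in SNI than in sham and higher in SNI + G15 than in either. Col1a1 was at 71.08, 68.29 and 73.24 FPKM in sham, 71.81, 70.28 and 71.03 in SNI and 84.27, 90.22 and 86.72 in SNI + G15 (0.31 ± 0.039 against SNI, adjusted p = 0.00147). Col1a2 was at 45, 42.91 and 44.73 FPKM in SNI + G15 (0.24 ± 0.041, adjusted p = 0.00574), a call lost in the fit of all 9 libraries (adjusted p = 0.109), and Col5a2, a chain that sets fibril diameter, was at 14.68, 14.84 and 14.15 against 12.25, 12.25 and 11.65 in SNI (0.29 ± 0.044, adjusted p = 0.00344). In all 4 genes the SNI + G15 libraries lay above the SNI libraries without overlap. The other fibrillar genes did not pass, among them the abundant Col5a3, at 60.8, 59.22 and 56.59 FPKM with G15 (-0.05 ± 0.042, adjusted p = 0.463).

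Col8a1, a short-chain collagen of vessel walls and endothelial matrices, had the largest fold change with G15. It stood at 1.78, 1.3 and 1.85 FPKM in sham, 2.24, 2.22 and 2.56 in SNI and 4.27, 4.03 and 3.95 in SNI + G15, in 3 groups that did not overlap. The difference from SNI was 0.80 ± 0.087 (adjusted p = 0.000694), or 1.74-fold. Its partner Col8a2 rose less (0.32 ± 0.075, adjusted p = 0.0227), from 11.83, 10.6 and 12.03 FPKM in SNI to 15.31, 14.65 and 12.75, and lost its call without any 1 of the 3 SNI libraries and without SNI + G15 replicate 1 or 2. The ratio of Col8a2 to Col8a1 within a library was 7.02 ± 1.1 in sham, 4.92 ± 0.32 in SNI and 3.48 ± 0.22 in SNI + G15, and its ranges did not overlap between groups.

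The remaining calls with G15 were those of Col16a1 (0.29 ± 0.043, adjusted p = 0.00302), Col18a1 (0.33 ± 0.064, adjusted p = 0.0103) and Col28a1 (0.23 ± 0.041, adjusted p = 0.00688). Col28a1 encodes a collagen of Schwann cell basement membranes in peripheral nerve. It was at 18.93, 17.94 and 18.09 FPKM in sham, 19.64, 20.14 and 19.3 in SNI and 23.26, 22.65 and 22.76 in SNI + G15. Its groups did not overlap, although the step from sham to SNI did not pass the test (0.07 ± 0.042, adjusted p = 0.168). The Col18a1 call was lost without SNI replicate 2.

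**Figure D3:**
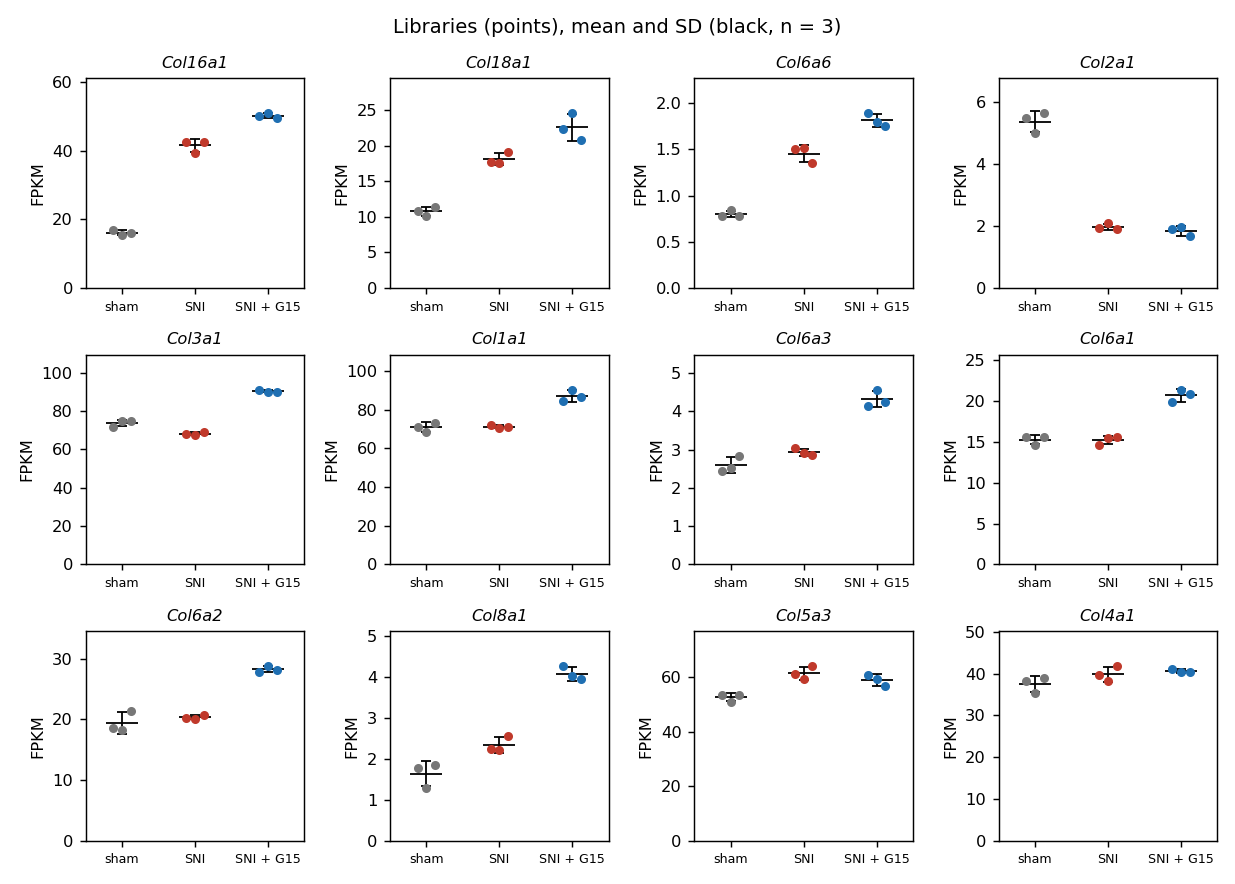
FPKM (y axis from 0) of 12 collagen genes in the sham, SNI and SNI + G15 libraries (points), with mean and SD in black (n = 3). Col16a1, Col18a1 and Col6a6 step up at both comparisons and Col2a1 steps down at the first. Col3a1, Col1a1, Col6a1 and Col6a2 are higher in SNI + G15 alone. The Col6a3 libraries of SNI lie just above those of sham, and those of SNI + G15 lie above both. The Col4a1 libraries of SNI overlap both other groups.

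Of the type IV genes, the sheet-forming chains of basement membranes, Col4a1 and Col4a2 passed the level limit. Col4a1 was at 38.27, 35.43 and 38.99 FPKM in sham, 39.66, 38.2 and 41.76 in SNI and 41.21, 40.33 and 40.37 in SNI + G15. Col4a2 was at 26.28, 25.01 and 27.43 FPKM in sham, 25.53, 25.02 and 26.35 in SNI and 26.04, 26.97 and 25.17 in SNI + G15. The groups overlapped in both genes, except that all SNI + G15 libraries of Col4a1 lay above sham. With G15 the log2 fold changes against SNI were 0.04 ± 0.043 for both (adjusted p = 0.541 for Col4a1 and 0.577 for Col4a2). When a trend of the counts on transcript length was taken out of each library, both passed, at 0.17 for Col4a1 (adjusted p = 0.0462) and 0.16 for Col4a2 (adjusted p = 0.036), and Col4a2 was lower in SNI than in sham (-0.13, adjusted p = 0.0144). The lack of a call therefore depended on this setting. The difference between type IV and type VI was not itself tested.

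Summed over classes, the members made up 0.253% ± 0.0091 of all estimated counts in sham, 0.278% ± 0.0060 in SNI and 0.319% ± 0.0049 in SNI + G15 (SD, n = 3), with no overlap between groups. The summed level of the fibrillar genes was 261.6 ± 9.82 FPKM in sham, 271.4 ± 4.96 in SNI and 316.4 ± 2.66 in SNI + G15. That of type IV was 65.4 ± 3.08, 66.8 ± 2.23 and 67.7 ± 1.08 FPKM. That of the remaining classes was 135.0 ± 4.48, 170.6 ± 3.34 and 206.7 ± 4.62 FPKM, and Col16a1 alone rose by more FPKM after injury than all fibrillar genes together.

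**Figure D4:**
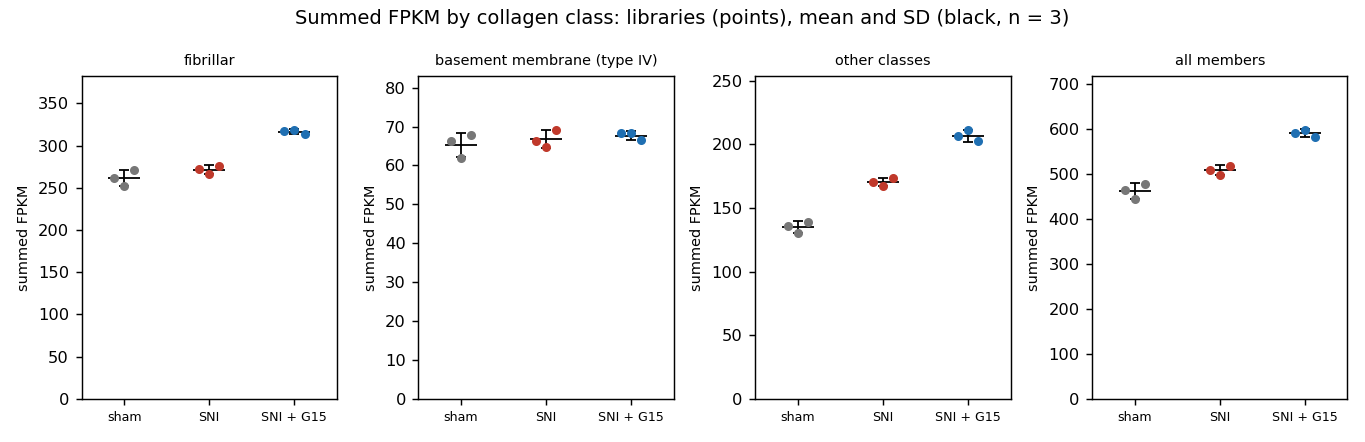
Summed FPKM (y axis from 0) of fibrillar genes, type IV genes, the other classes and all 44 collagen genes in each library (points), with mean and SD in black (n = 3). The sum over all members rises from 461.9 in sham to 508.8 in SNI and 590.8 in SNI + G15, and that of type IV stays between 65.4 and 67.7.

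Against sham, SNI + G15 showed 14 higher and 5 lower members (edgeR's quasi-likelihood test), or 67.9% against 43.2% of all tested genes (21.4% higher and 21.9% lower). The groups did not overlap in 23 members, against 52.9% of all tested genes. The median log2 fold change was 0.26 for the members and -0.0037 over all tested genes. This comparison shares libraries with both others. The largest differences were those of Col16a1 (1.60 ± 0.051, adjusted p = 1.71e-08), Col8a1 (1.26 ± 0.13, adjusted p = 4.49e-05), Col6a6 (1.14 ± 0.080, adjusted p = 2.87e-06), Col18a1 (1.03 ± 0.072, adjusted p = 2.94e-06) and Col6a3 (0.72 ± 0.077, adjusted p = 5.13e-05) on the higher side. On the lower side were Col2a1 (-1.54 ± 0.086, adjusted p = 6.87e-07), Col6a5 (-0.51 ± 0.065, adjusted p = 0.000163), Col12a1 (-0.49 ± 0.10, adjusted p = 0.00321), Col14a1 (-0.39 ± 0.077, adjusted p = 0.00232) and Col11a2. Col11a2, a minor chain of cartilage fibrils, stood at 1.05, 0.96 and 1.16 FPKM in sham, 1.15, 0.95 and 1.32 in SNI and 0.76, 0.93 and 0.9 in SNI + G15 (-0.32 ± 0.11 against sham, adjusted p = 0.0369). It passed the level limit only in sham and SNI libraries, so it was tested only through the groups in which it was high. Its call was lost without any 1 of the 3 sham libraries and without SNI + G15 replicate 1 or 3, and also by DESeq2 and limma, and its counts were not whole in any library.

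Across the 3 comparisons, 5 members (Col16a1, Col18a1, Col6a6, Col8a1 and, least steadily across settings, Col1a2) were higher at each step. A further 7 (Col1a1, Col5a2, Col6a1, Col6a2, Col6a3, Col8a2 and Col28a1) passed with G15 against both SNI and sham but not between SNI and sham. A set of 4 genes, Col2a1, Col6a5, Col12a1 and Col14a1, were lower in both injured groups than in sham and did not pass between the injured groups. In 7 members, Col5a1, Col11a1, Col24a1, Col4a1, Col4a2, Col9a2 and Col9a3, no comparison passed in edgeR's test as run here, although each of them but Col24a1 and Col9a2 passed at least once under another setting. Col6a6 was tested only through the injured groups, in which it was high. The share of all tested genes with each pattern was not counted and the 3 comparisons share libraries, so these counts describe the members only.

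The 16 members below the level limit were fitted together with all genes without that limit, and their levels rest on few reads. Col7a1, the anchoring fibril chain of epithelial basement membranes, stood at 0.07, 0.08 and 0.05 FPKM in sham (12, 14 and 9 counts) and rose to 0.38, 0.42 and 0.35 in SNI (67, 74 and 61 counts), a log2 fold change of 2.48 ± 0.22 (adjusted p = 5.4e-06). In SNI + G15 it was at 0.52, 0.65 and 0.58 FPKM (89, 112 and 102 counts), higher than in SNI (0.60 ± 0.14, adjusted p = 0.0286), and the 3 groups were separate. Col17a1, a transmembrane collagen of hemidesmosomes, rose from 2, 5 and 2 counts in sham to 9, 14 and 16 in SNI (2.04 ± 0.49, adjusted p = 0.00726). Col4a6 fell from 17, 13 and 18 counts to 7, 7 and 3 (-1.51 ± 0.39, adjusted p = 0.0107), and Col4a5 (-0.61 ± 0.13), Col10a1 (-0.86 ± 0.17), Col13a1 (-0.56 ± 0.20) and Col19a1 (-0.28 ± 0.085) were also lower in SNI than in sham. Col23a1 had no counts in 8 libraries and 27.94 in SNI + G15 replicate 3.

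Transcript values were deposited for 91 transcripts of the 44 genes, and 25 genes had a single transcript. In 10 of the 19 others, the transcript with the highest FPKM was not the same in all libraries. For Col7a1 the whole level was assigned to 1 of 2 transcripts in each library, to 1 of them in all sham libraries and SNI + G15 replicate 1 and to the other in the remaining 5. For Col16a1 the leading of 6 transcripts held between 10.7% and 56.8% of the level, with no separation by group. Gene totals were therefore used, and no isoform was compared.

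Genes that process collagen were read from a list of 37, of which 32 were tested. After injury 11 were higher and 5 lower, a share near the 45.7% of all tested genes, with a median log2 fold change of 0.03. Serpinh1, the collagen chaperone HSP47, rose from 62.53, 66.19 and 64.73 FPKM in sham to 112.64, 112.24 and 107.64 in SNI (0.75 ± 0.040, adjusted p = 1.57e-07). The hydroxylase subunit P4hb (0.42 ± 0.036), the lysyl hydroxylase Plod3 (0.45 ± 0.044) and the galactosyltransferase Colgalt1 (0.32 ± 0.045) were also higher. Adamts2, the protease that removes the amino propeptide of fibrillar procollagens, fell from 3.94, 3.65 and 4.18 FPKM to 2.28, 2.38 and 2.65 (-0.73 ± 0.065, adjusted p = 6.91e-06). The procollagen protease Tll1 (-0.63 ± 0.089), the galactosyltransferase Colgalt2 (-0.34 ± 0.043) and the prolidase Pepd (-0.26 ± 0.055) were lower too.

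With G15, 7 of these 32 genes were higher than in SNI and none was lower, against 7.98% and 7.25% of all tested genes. The counts are those of edgeR's quasi-likelihood test, and the median of the 32 was 0.15. At an unadjusted p under 0.05, 12 of the 32 were higher and 2 lower, and neither DESeq2 nor limma called one lower. Lox, the lysyl oxidase that cross-links collagen, was at 2.92, 2.95 and 2.92 FPKM in sham, 4.15, 4.1 and 3.66 in SNI and 7.8, 7.28 and 6.84 in SNI + G15. Its 3 groups were separate, with a difference from SNI of 0.90 ± 0.070 (adjusted p = 0.000131), or 1.86-fold. Pcolce, an enhancer of procollagen C-proteinase, rose from 22.24, 23.25 and 22.13 FPKM in SNI to 33.06, 35.44 and 38.85 (0.68 ± 0.071, adjusted p = 0.000531). The prolyl isomerase Fkbp10 (0.49 ± 0.060, adjusted p = 0.00131) and the oxidase Loxl1 (0.45 ± 0.074, adjusted p = 0.00504) were also higher, whereas Serpinh1 was at 100.1, 101.98 and 101.29 FPKM and did not pass. Against sham, 12 of the 32 were higher and 3 lower, beside 21.4% and 21.9% of all tested genes.

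The small leucine-rich proteoglycans bind fibrils and set their spacing. Of 9 tested, 6 were lower and none higher in SNI than in sham (median -0.72, edgeR), 5 were higher and none lower in SNI + G15 than in SNI (median 0.34), and 3 were higher and 5 lower in SNI + G15 than in sham (median -0.62). At an unadjusted p under 0.05 the counts of 0 stayed at 0, as they did by DESeq2 and limma. Of all tested genes, 23.3% were higher and 22.4% lower in SNI than in sham. With G15, 7.98% were higher and 7.25% lower than in SNI, and 21.4% higher and 21.9% lower than in sham. Fmod, fibromodulin, stood at 5.81, 5.58 and 5.7 FPKM in sham, 2.31, 2.33 and 2.28 in SNI and 3.1, 3.31 and 2.77 in SNI + G15, and its groups were separate (-1.33 ± 0.069 for SNI against sham, adjusted p = 1.3e-07). Ogn (-0.87 ± 0.066), Omd (-1.24 ± 0.13) and Prelp (-0.48 ± 0.052) fell as well after injury. Lum, lumican, and Bgn, biglycan, did not pass after injury (-0.11 and -0.07, adjusted p = 0.14 and 0.176). Lum was at 35.78, 35.51 and 35.42 FPKM in SNI and 61.44, 58.28 and 64.34 in SNI + G15 (0.80 ± 0.051, adjusted p = 3.64e-05), and Dcn (0.53 ± 0.038), Bgn (0.57 ± 0.046) and Prelp (0.34 ± 0.050) rose with it.

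Of 6 tested collagen receptors, 2 were higher and 2 lower after injury, beside 23.3% and 22.4% of all tested genes. Itgb1, the β1 integrin subunit shared by the collagen integrins, rose from 98.93, 95.63 and 91.56 to 137.05, 145.06 and 138.7 FPKM (0.53 ± 0.037, adjusted p = 1.26e-06), and Itga1 rose by 0.66 ± 0.19 from 0.64, 0.6 and 0.69 to 0.78, 1.13 and 1.2 FPKM. Itga11, a fibroblast integrin subunit for fibrillar collagen, fell from 1, 1.05 and 1.11 to 0.46, 0.48 and 0.49 FPKM (-1.23 ± 0.15). Itga1 passed the level limit only in SNI libraries and Itga11 only in sham libraries, so each was tested only through the group in which it was high. The uptake receptor Mrc2 fell by 0.52 on the log2 scale. With G15, Mrc2 alone was higher than in SNI (0.35 ± 0.078, adjusted p = 0.0199), and limma did not call it. Against sham, 1 receptor was higher and 2 were lower. The shares of all tested genes were 7.98% higher and 7.25% lower against SNI, and 21.4% and 21.9% against sham.

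**Figure D5:**
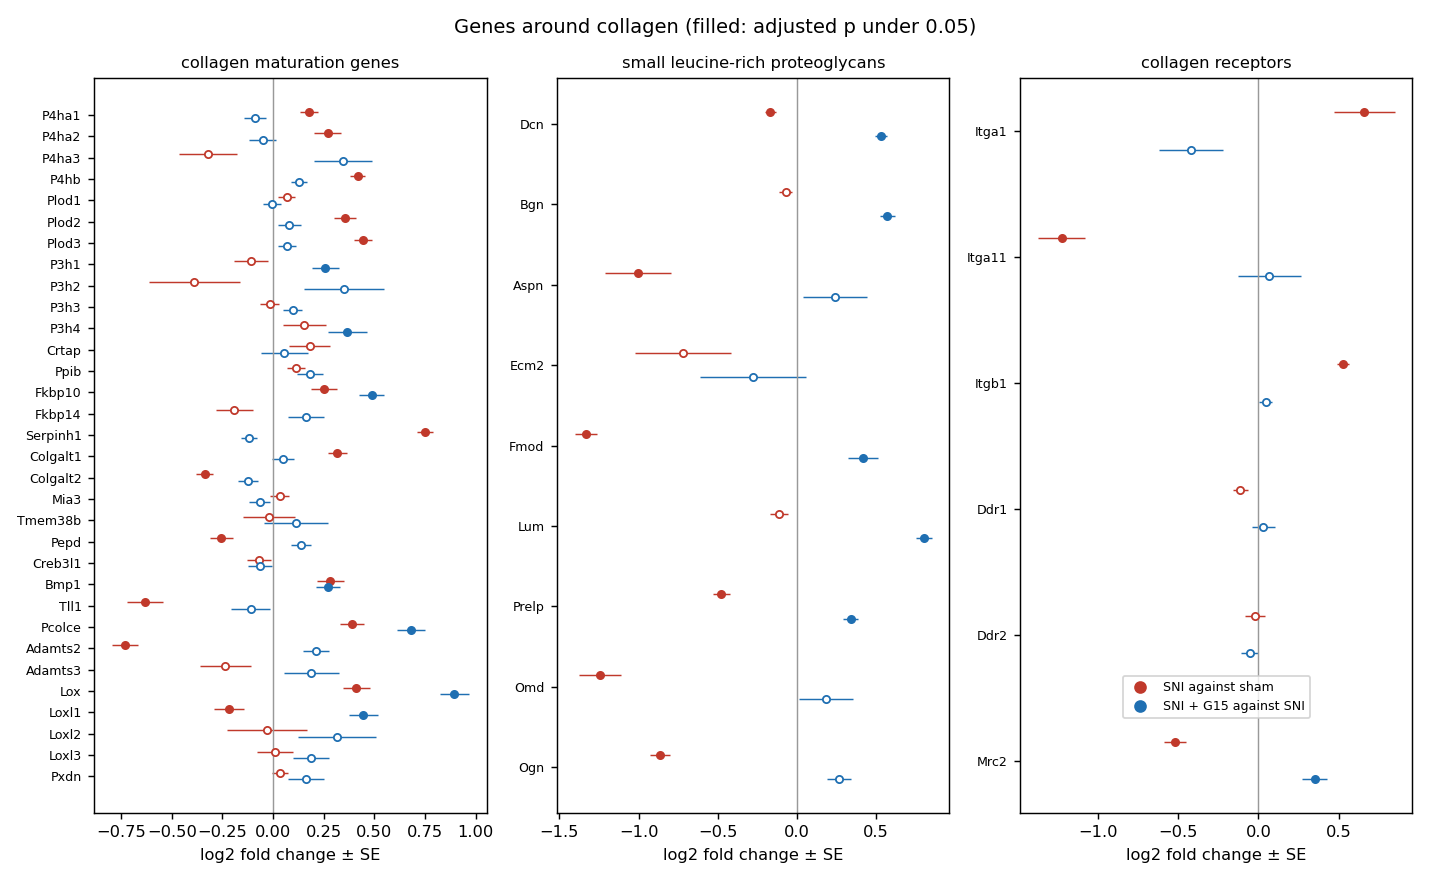
Log2 fold change (x axis, ± SE) of the tested collagen maturation genes, small leucine-rich proteoglycans and collagen receptors for SNI against sham (red) and SNI + G15 against SNI (blue); filled points passed an adjusted p of 0.05. In the middle panel all filled red points lie below 0 and all filled blue points above it.

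Markers of the cells that make collagen were counted beside these results. For comparison, 23.3% of all tested genes were higher and 22.4% lower after injury, and 7.98% higher and 7.25% lower with G15. Of 12 tested fibroblast markers, 3 were higher and 8 lower in SNI than in sham, and with G15 10 were higher than in SNI and none lower (median 0.50), also none lower at an unadjusted p under 0.05. Their summed level lay between 2926 and 3075 FPKM in sham, between 3214 and 3331 in SNI and between 4192 and 4416 with G15, a sum set mainly by Apod and Thy1. Pdgfra, a receptor in the list, was at 4.44, 3.84 and 3.95 FPKM in sham, 4.67, 4.74 and 4.73 in SNI and 5.68, 5.38 and 5.4 in SNI + G15. It was among the 3 markers that were higher after injury (0.18 ± 0.060). Among the 8 that were lower were Dpt (-1.13 ± 0.15) and Pi16 (-1.09 ± 0.078). Dcn and Lum are in this list and in that of the proteoglycans. Pericyte and smooth muscle markers were 3 of 8 higher and none lower after injury (also none lower at an unadjusted p under 0.05 in edgeR), and 4 of 8 higher and none lower with G15 (1 lower at an unadjusted p under 0.05), and their sum went from 71.81 to 79.35 FPKM in SNI to 98.36 to 102.7 in SNI + G15. Schwann cell markers were 7 of 10 lower after injury and 5 of 10 higher with G15. Endothelial markers were 1 higher and 1 lower of 9 after injury and 2 higher and 1 lower with G15. The part of these cells in the collagen differences was not tested.

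The other marker lists stand beside the same shares, 45.7% of all tested genes called after injury and 15.2% with G15. Macrophage genes were 7 of 8 higher after injury and 2 of 8 higher with G15. Erythroid genes, a sign of blood in the tissue, were 8 of 8 higher in SNI than in sham and 8 of 8 lower in SNI + G15 than in SNI. Satellite glia had 3 higher and 1 lower of 8 after injury and 2 higher and 3 lower with G15, and sensory neurons had 2 higher and 7 lower of 12 and then 2 higher and 3 lower. Of 6 mesothelial and arachnoid barrier genes, 1 was higher and 4 lower after injury and 2 were higher and 2 lower with G15. Among these, Msln passed the level limit only in SNI + G15 libraries and was called higher there than in SNI. Dpp4 passed the limit only in sham replicate 3 and was called lower after injury. Each was tested only through the group in which it was high. None of the 3 tested skeletal muscle genes passed in either by edgeR, and at an unadjusted p under 0.05 the counts were 1 lower after injury and 1 higher with G15. Their part in the results was not tested.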

How the data were processed

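RNA-Seq of DRG tissue was analysed in 9 libraries, 3 per group. The authors deposited estimated counts per gene, which need not be whole (70.9% to 72% of values were whole per library, within 0.005), and FPKM of genes and transcripts, scaled to library size and length. The aligner is not given in the sources used here, and the submitters' processing notes name the mouse builds GRCm38 and mm10 although the gene identifiers are those of rat. The extraction protocol in the labels names macrophages and another kit than the methods. Sham columns bear the word control and a number, and were matched by these to the sham titles, since the other columns are named for the SNI libraries. Duplicate TPM columns, mean columns and the authors' own comparisons (fold changes and p-values) were not used.

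Estimated counts were rounded, scaled by TMM and tested with edgeR 4.0.16 (quasi-likelihood, R 4.3.3) on the 14305 genes that reached 1 FPKM in 1 or more libraries, with Benjamini-Hochberg adjustment over all of them. Only the groups compared entered a fit. DESeq2 1.42.0 and limma 3.58.1 on log2(FPKM + 1) and log2(FPKM + 0.1) were alternatives, with other scalings and filters, 1 fit of all libraries, a replicate block, a length trend and each library left out. Libraries were left out for the collagen members only. On simulated data in which 200 genes carried a log2 change of 1, 93% were recovered for SNI against sham, 90.5% for SNI + G15 against SNI and 93.5% for SNI + G15 against sham. Total estimated counts of 18484557 to 18756736 per library set the precision of low genes.

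The members and lists were chosen with earlier results of these data known. Values in every library were given for the 8 members highest in mean FPKM, up to 5 called members per direction and comparison by smallest adjusted p, and the 2 members on each side of the level limit. Up to 4 called genes per direction were named from each pathway list. Other members with such values (Col5a2, Col15a1, Col8a2, Col28a1, Col7a1, Col17a1, Col4a6 and Col23a1) were chosen after their values were seen. Marker lists covered fibroblasts, mesothelial and arachnoid barrier cells, endothelial cells, pericytes and smooth muscle, Schwann cells, satellite glia, sensory neurons, macrophages, erythroid cells, skeletal muscle, and cartilage and bone. A count of Gly-X-Y repeats was planned and was not run.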

Additional observations from a re-analysis of the deposited data

How the results depend on the processing

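The depth and 3 libraries per group limit what small changes and members under 1 FPKM can show. The direction and call of Col16a1 and Col2a1 held in all 16 alternatives of SNI against sham, and those of Col6a3 and Col8a1 in all 16 of SNI + G15 against SNI. The cause of the changes below was not tested. Over all tested genes, replicate numbers gave no clear pairing of the libraries. Correlations of same-numbered deviations ran from -0.0014 to 0.022 for SNI against sham, from -0.083 to 0.092 for SNI + G15 against SNI and from -0.12 to -0.036 for SNI + G15 against sham. Single transcripts are not covered by this: for Col11a1, the transcript with the highest FPKM was another one in replicate 3 of every group. With the replicate block, 8 members were higher and 5 lower, 13 and 0, and 15 and 4 in these comparisons, where Col11a2 lost its call and Col15a1 gained one against sham, and 1292 of all genes passed for SNI + G15 against SNI in place of 2179. A library correlated best with its own number in 0 of 6 cases for both comparisons with sham and in 3 of 6 for SNI + G15 against SNI.

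The study called genes from DESeq2 at an unadjusted p under 0.05 and a log2 fold change of 0.5 or more in either direction. Here these thresholds were set on edgeR's quasi-likelihood test instead. At them, 4 members were higher and 2 lower for SNI against sham, and 2 were higher for SNI + G15 against SNI. For SNI + G15 against sham, 6 were higher and 2 lower. The share of all tested genes at these thresholds is not given, so these counts describe the members only. Lower members numbered 10 without a filter, 10 with filterByExpr and 8 with the length trend for SNI against sham, and 9 and 10 with the same 2 filters for SNI + G15 against sham; the filters add genes to the test. Under these filters 4 receptors were higher in either injured group than in sham and 1 lower in SNI + G15 than in SNI. Lower receptors of SNI + G15 against sham numbered 1 under RLE, upper-quartile, DESeq2, both limma fits, the fit of all 9 libraries, the replicate block and the length trend. Higher receptors of SNI + G15 against SNI numbered 0 in both limma fits. With the length trend, lower maturation genes numbered 1 for SNI + G15 against SNI and 5 against sham.

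The sign turned in values that passed no test. For SNI against sham, Col1a1 was 0.00393 and 0.003986 in the limma fits and ranged from -0.05273 to 0.002537 with 1 library left out, Col4a1 was -0.01448 with the length trend, Col6a2 ranged from -0.006564 to 0.119 with 1 library left out, and Col11a2 was -0.02811 with the length trend and ranged from -0.07125 to 0.1437 with 1 library left out. For SNI + G15 against SNI, Col5a3 was 0.06885 with the length trend. Leaving out 1 library, higher members ranged from 6 to 8 and lower from 5 to 6 for SNI against sham, from 11 to 13 and 0 for SNI + G15 against SNI, and from 13 to 16 and 4 to 5 for SNI + G15 against sham.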
